A study of Sus scrofa with 24 samples.

Results

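The genes described here are 10 transcription factors that drive fat cell formation: PPARG, CEBPA, CEBPB, CEBPD, KLF4, KLF5, EBF1, RXRA, STAT5A and STAT5B. They were chosen by name, and every listed transcript carrying 1 of these symbols was taken. The deposited table holds 9 of the 10 symbols, with 20 transcripts, among 12017 gene sums and 22154 transcripts in all. KLF4 does not appear as a symbol, and a locus at its position is described separately below.

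The study compared longissimus dorsi, the long back muscle, between 12 pigs labelled as high and 12 labelled as low in intramuscular fat (IMF), which lies between the fibres of a muscle. Each animal was an F1 of a Duroc boar and a Luchuan sow and was picked out of 265 such offspring of 8 boars and 112 sows, all kept on the same farm and diet. Age at slaughter was 210 ± 6 days, and the sample was cut at the thoracolumbar junction 25 minutes postmortem. Libraries of polyA RNA were read as 150-base pairs. Measured fat content, litter and sex of the animals were not used here, and no agent or engineered allele is named for either class. Animals are numbered within their class, and these numbers pair nothing.

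Fat cells form from fibroblast-like progenitors through a relay of transcription factors. CEBPB and CEBPD act early, KLF4, KLF5 and EBF1 help pass the signal on, and PPARG and CEBPA then switch each other on and turn on the genes of lipid storage. PPARG binds DNA as a pair with RXRA, and STAT5A and STAT5B carry growth hormone and prolactin signals that favour the process. In muscle most RNA comes from the fibres, so fat cell transcripts are a small part of each library, and CEBPB, CEBPD, RXRA and the STAT5 genes are also made by fibres and other cells.

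Values are FPKM, which divides the fragments of a transcript by its length and by the mapped fragments of the library, and a gene sum adds up the transcripts listed for 1 gene. Differences are high minus low IMF on the log2(FPKM + 1) scale, tested with limma over the 11757 gene sums averaging 0.5 FPKM or more, and an adjusted p under 0.05 was the threshold. The summed FPKM of the libraries ran from 351119 to 415572, and their depth was estimated from the values at 32.9 to 40.8 M reads (M for mega). Of the 276 pairs of libraries, 0 were identical. In low IMF animal 10 and high IMF animal 7 the 10 most abundant genes took 18.5% and 20.2% of the FPKM, against at least 24.7% in the other 22 libraries. The muscle fibre markers summed to 21096 to 50066 FPKM in the high and 24373 to 58314 FPKM in the low IMF animals. An exact 0 in this table can be a failed estimate: RYR1, the calcium release channel of muscle, had a mean of 79.6 FPKM and was listed at 0 in 3 libraries.

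None of the 9 factors passed the threshold: 0 of 9 were called, where 0.051% of all genes tested were called in either direction. At an unadjusted p under 0.05 the factors gave 2 of 9 (22.2%), CEBPA and PPARG, both with higher means in high IMF muscle, against 7.68% of all genes in either direction and 6.79% in that direction. The other 7 factors had differences from -0.09 to 0.20 and adjusted p from 0.827 to 0.999 (limma). Across the 9 the median difference was 0.06, with 6 above 0 and 3 below, while the median of all genes was 0.08. With libraries scaled by the trimmed mean of M values (TMM), which matches the bulk of genes between libraries, 3 factors were above 0 and 6 below and the median was -0.04, beside -0.00032 for all genes. CEBPA and PPARG were again the 2 with an unadjusted p under 0.05, against 5.11% of all genes.

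By mean FPKM over the 24 animals, CEBPB was the most abundant at 69.5 FPKM, followed by STAT5B at 24.996, RXRA at 14.5 and CEBPD at 13.3 FPKM. CEBPA at 7.29, STAT5A at 6.94, KLF5 at 2.97, EBF1 at 1.94 and PPARG at 1.55 FPKM completed the order. The animals' ranges overlapped for every neighbouring pair in this order, so it holds for means only. The spread over animals was wide, with coefficients of variation from 33.5% for STAT5A to 71.8% for CEBPD.

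**Figure D1:**
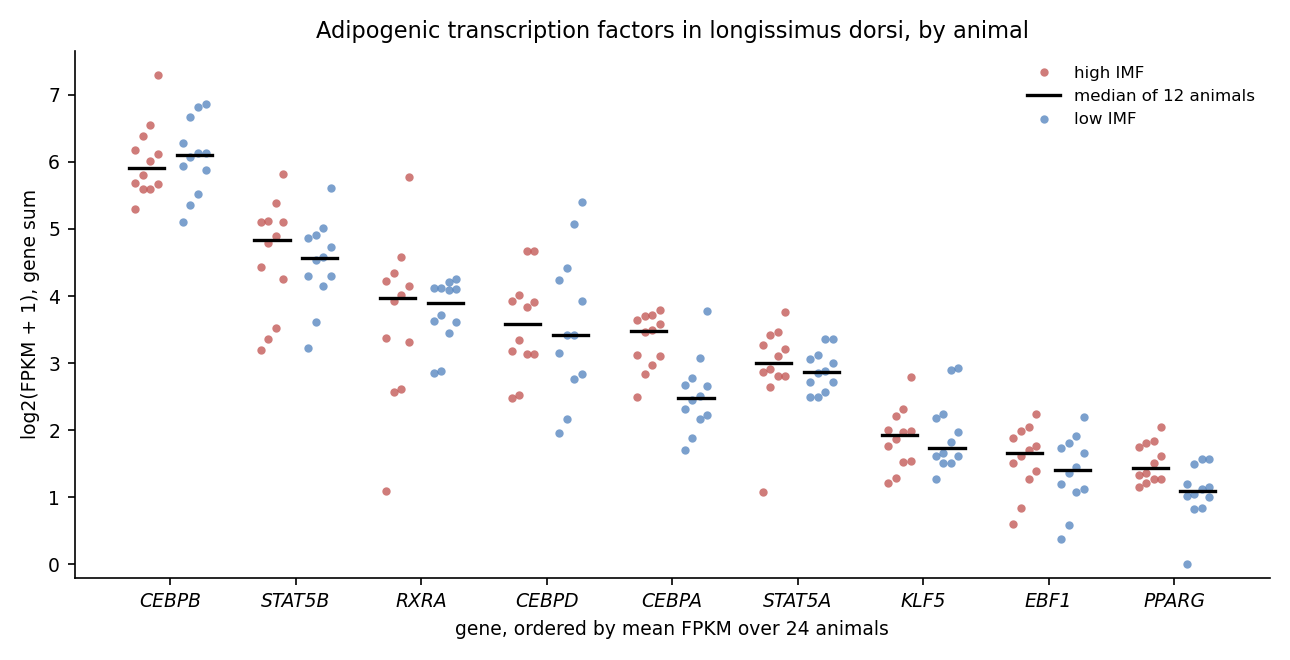
Gene-sum levels of the 9 factors, ordered by mean, as log2(FPKM + 1) in each of 12 high (red) and 12 low (blue) IMF animals, with a bar at each class median. All 12 high IMF animals lie above the low IMF median for CEBPA and for PPARG, while the clouds of the other 7 factors overlap widely.

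CEBPB and CEBPD, bZIP factors that respond within hours to hormones and are the first of the relay, had close class means. CEBPB ranged from 38.5 through a median of 59.1 to 156 FPKM in high IMF animals and from 33.4 through 67.7 to 116 FPKM in low IMF animals. Its difference was -0.05 (SE 0.212, 95% interval -0.49 to 0.39, adjusted p = 0.973, limma). High IMF animal 2 lay above and low IMF animal 4 below the range of the other class, and the classes otherwise overlapped. CEBPD ranged from 4.60 through 11.2 to 24.5 FPKM in high and from 2.89 through 9.70 to 41.3 FPKM in low IMF animals, the top value in low IMF animal 10. Its difference was 0.006 (SE 0.352, 95% interval -0.72 to 0.73, adjusted p = 0.999, limma), and it was 0.17 without that animal. The intervals of both genes still admit differences of about the size seen for PPARG below.

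CEBPB and CEBPD varied together among animals. Their log2(FPKM + 1) values, centred within IMF class, had a Pearson r of 0.664 over 24 animals, 0.465 within the high and 0.812 within the low class. Without low IMF animal 10 the r was 0.620 over 23 animals and 0.765 within the low class. This was the highest r among the 36 pairs of factors, whose median was 0.163. CEBPB and KLF5 had an r of 0.491, PPARG and KLF5 0.437, and PPARG and CEBPA, the pair known to sustain each other in fat cells, 0.164. Each point in these correlations is 1 library, so the values share its depth and its mix of cells.

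KLF5, a Krüppel-like factor induced by CEBPB and CEBPD that acts on the PPARG promoter, was measured from a single 4-exon transcript. It ranged from 1.31 through 2.79 to 5.97 FPKM in high and from 1.41 through 2.34 to 6.603 FPKM in low IMF animals, with a difference of -0.06 (SE 0.194, adjusted p = 0.963, limma). High IMF animal 12 lay below the low IMF range, low IMF animals 3 and 10 lay above the high IMF range, and the classes otherwise overlapped. EBF1, a factor of B cells and of fat cell progenitors, ranged from 0.517 through 2.17 to 3.74 FPKM in high and from 0.3005 through 1.66 to 3.58 FPKM in low IMF animals. Its difference was 0.20 (95% interval -0.21 to 0.61, adjusted p = 0.827, limma), and 8 of 12 high IMF animals were above the low IMF median.

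KLF4, a related factor that induces CEBPB, is placed by RefSeq on Sscrofa11.1 at chr1:248604817-248609574, and 2 listed transcripts without a symbol overlap it. This locus was picked out after its values were seen and is counted among no members. It measured 4.60 ± 1.57 FPKM (SD, n = 12) in high and 4.38 ± 1.49 FPKM (SD, n = 12) in low IMF muscle, a difference of 0.06 (SE 0.169, adjusted p = 0.957, limma). The classes overlapped over nearly their whole ranges.

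PPARG, the nuclear receptor without which fat cells do not form, was the least abundant of the factors. In high IMF animals 1 to 12 it measured 3.14, 1.418, 2.06, 2.50, 1.51, 1.85, 2.57, 2.37, 1.42, 1.24, 1.58 and 1.33 FPKM. In low IMF animals 1 to 12 it measured 1.002, 0.772, 1.03, 1.08, 1.18, 0.793, 0, 1.29, 1.81, 1.96, 1.97 and 1.24 FPKM. All 12 high IMF animals were above the low IMF median of 1.13 FPKM and 5 were above the low IMF maximum of 1.97 FPKM, while 7 low IMF animals were below the high IMF minimum of 1.24 FPKM and the other 5 (animals 8 to 12) lay within the high IMF range. The difference was 0.45 (SE 0.145, 95% interval 0.15 to 0.74, unadjusted p = 0.00489, adjusted p = 0.419, limma), from means of 1.92 ± 0.609 and 1.18 ± 0.558 FPKM (SD, n = 12 each), so it did not pass the threshold.

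Low IMF animal 7 lists all 3 PPARG transcripts at 0, and 102 gene sums are at 0 in that library, near the median library's 109.5. Without it the low IMF mean was 1.28 ± 0.437 FPKM (SD, n = 11) and the difference was 0.35 (adjusted p = 0.439, limma). A pseudocount of 0.1 in place of 1 gave 0.86 (adjusted p = 0.554, limma), and 0.55 (adjusted p = 0.428, limma) when animal 7 was also left out. The depth behind PPARG was small: its gene sum was worth a median of 94.8 reads per library, against 252 for CEBPA and 4322 for CEBPB.

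RXRA, the DNA-binding partner of PPARG and of many other nuclear receptors, had close class medians. It ranged from 1.14 through 14.7 to 53.9 FPKM in high and from 6.21 through 14.1 to 18.2 FPKM in low IMF animals, with a difference of -0.09 (SE 0.348, 95% interval -0.80 to 0.63, adjusted p = 0.970, limma). Both extremes were high IMF animals, animal 4 at 1.14 FPKM and animal 3 at 53.9 FPKM, and the SD was 13.7 FPKM in the high against 4.20 FPKM in the low IMF class. The difference was -0.28 without animal 3 and 0.15 without animal 4, so its sign rests on single libraries. Among the animals of a class PPARG and RXRA had an r of -0.088.

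CEBPA, which sustains PPARG expression and is needed for insulin-responsive fat cells, had the largest difference of the 9. In high IMF animals 1 to 12 it measured 12.2, 7.59, 10.03, 11.96, 7.67, 10.3, 11.01, 6.19, 6.89, 11.5, 12.9 and 4.65 FPKM. In low IMF animals 1 to 12 it measured 3.5001, 5.36, 2.27, 2.70, 3.97, 4.70, 7.46, 5.86, 4.46, 12.7, 5.29 and 3.67 FPKM. All 12 high IMF animals were above the low IMF median of 4.58 FPKM, 11 of 12 low IMF animals were below the high IMF median of 10.2 FPKM, and low IMF animal 10 alone reached the upper high IMF values. The means were 9.40 ± 2.70 and 5.17 ± 2.78 FPKM (SD, n = 12 each), a ratio of 1.82. The difference was 0.81 (SE 0.190, 95% interval 0.42 to 1.20, unadjusted p = 2.44e-04, adjusted p = 0.164, limma) and did not pass the threshold.

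The call for CEBPA turned on low IMF animal 10. Without it the low IMF mean was 4.48 ± 1.49 FPKM (SD, n = 11), the difference was 0.92 and it passed the threshold (adjusted p = 0.0089, limma). It also passed with limma's array weights, which give less weight to animals that scatter more (0.87, adjusted p = 0.014), and when that animal and high IMF animal 7 were both left out (0.90, adjusted p = 0.017). Over the animals left out in turn the difference stayed between 0.74 and 0.92, with adjusted p from 0.0089 to 0.309 (limma). TMM scaling gave 0.72 (adjusted p = 0.119, limma). In the fits where CEBPA passed, calls over all genes rose too. Without low IMF animal 10, 29 genes were called higher, with array weights 23, and without both animals 18. The fit with every animal and no weights called 6 genes in either direction.

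**Figure D2:**
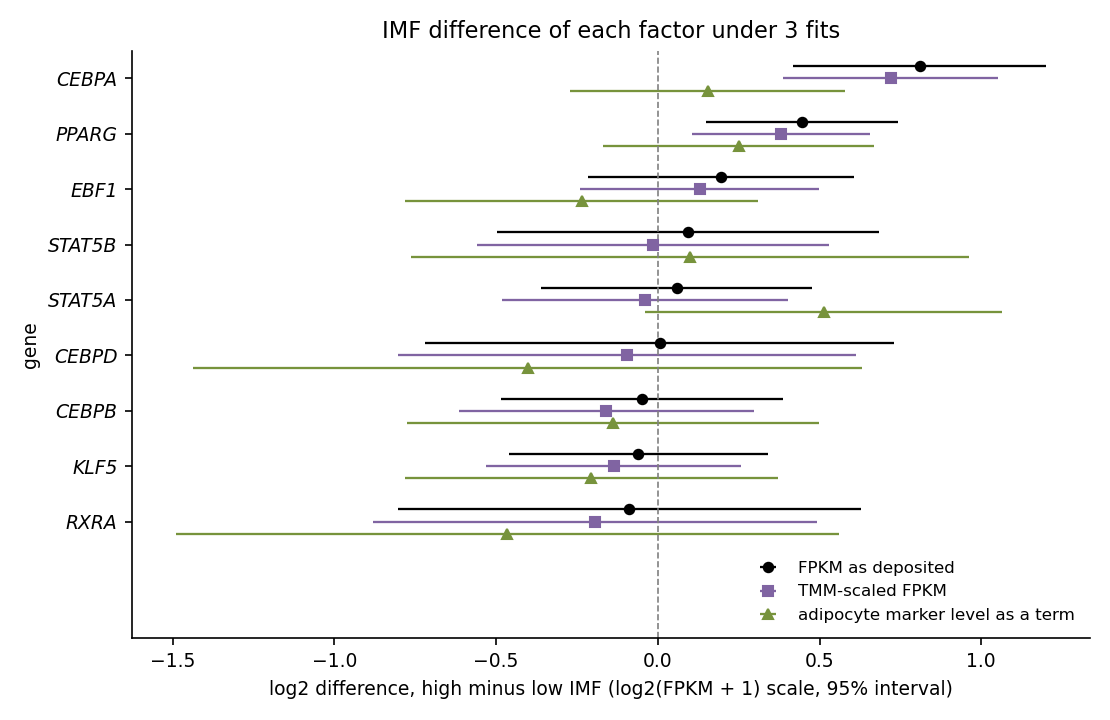
Difference of each factor, high minus low IMF on the log2(FPKM + 1) scale with 95% intervals, from FPKM as deposited (black circles), from TMM-scaled FPKM (purple squares) and with the adipocyte marker level as a term (green triangles). Only for CEBPA and PPARG do the first 2 intervals lie above 0, and the intervals of all 9 factors span 0 with the marker level as a term.

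STAT5A and STAT5B, signal transducers of the growth hormone and prolactin receptors, lie side by side on chromosome 12. STAT5A ranged from 1.104 through 7.07 to 12.6 FPKM in high and from 4.65 through 6.32 to 9.30 FPKM in low IMF animals, and both its lowest value (animal 5) and its highest (animal 11) were in the high IMF class. Its difference was 0.06 (SE 0.204, 95% interval -0.36 to 0.48, adjusted p = 0.968, limma). Without high IMF animal 5 it was 0.23 (adjusted p = 0.731, limma). STAT5B, the form that carries most growth hormone signal in muscle and liver, ranged from 8.17 through 27.6 to 55.2 FPKM in high and from 8.35 through 22.6 to 48.0 FPKM in low IMF animals. Its difference was 0.09 (SE 0.287, 95% interval -0.50 to 0.68, adjusted p = 0.960, limma), with widely overlapping classes.

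Animal identifiers open with 1 of 2 runs of 4 digits, which the labels leave unexplained, and this gives a lower-numbered and a higher-numbered set of 6 high and 6 low IMF animals each. CEBPA was higher in high IMF muscle in both sets: 9.19 ± 2.58 against 5.23 ± 1.36 FPKM (SD, n = 6 each) in the lower-numbered set, and 9.61 ± 3.04 against 5.11 ± 3.89 FPKM (SD, n = 6 each) in the higher-numbered set. The differences were 0.70 (two-sided exact permutation p = 0.00866) and 0.92 (exact permutation p = 0.0411), where 0.00216 is the smallest p the design allows. Without low IMF animal 10 the higher-numbered set gave 9.61 ± 3.04 FPKM (SD, n = 6) against 3.58 ± 1.18 FPKM (SD, n = 5) and a difference of 1.19 (exact permutation p = 0.00866). Leaving out any 1 of 10 other animals of that set took the p over 0.05, to at most 0.0823 (exact permutation), with 0.78 as the smallest difference. PPARG differed by 0.63 (exact permutation p = 0.0216) in the first and by 0.27 (exact permutation p = 0.121) in the second set, and by 0.45 (exact permutation p = 0.0433) in the first without low IMF animal 7. These 18 tests over 9 factors and 2 sets were not adjusted for their number. The 6 animals that share their first 9 identifier digits in 3 pairs are all in the lower-numbered set, each pair within 1 IMF class. Every permutation test in that set counts them as separate animals, and what the shared digits mean is not stated by the labels.

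STAT5A had a difference at an unadjusted p in the lower-numbered set, and in the higher-numbered set its value moved with single libraries. In the lower-numbered set it measured 8.02 ± 1.64 FPKM in high and 5.39 ± 0.893 FPKM in low IMF muscle (SD, n = 6 each), a difference of 0.49 (exact permutation p = 0.00649). In the higher-numbered set, which includes high IMF animal 5, it measured 6.64 ± 3.804 and 7.70 ± 1.34 FPKM (SD, n = 6 each), a difference of -0.37 (exact permutation p = 0.426). Without animal 5 that set gave 7.75 ± 2.98 FPKM (SD, n = 5) against 7.70 FPKM and a difference of -0.039 (exact permutation p = 0.853). Without high IMF animal 11 the difference was -0.58 (exact permutation p = 0.0823), and it stayed below 0 with each of the 12 animals left out. The difference between the sets, fitted in limma as an interaction over all 24 animals, was -0.86 (unadjusted p = 0.036, adjusted p = 0.998), and -0.53 without high IMF animal 5 (unadjusted p = 0.045). No factor and no other gene passed the threshold for that interaction (0 of 11757), and at an unadjusted p under 0.05 STAT5A was 1 of 9 factors, against 3.29% of all genes.

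Fat cell content was read from 11 of 13 listed adipocyte markers, none of them 1 of the factors, as the mean of their z scores in each animal. Of the 11, 10 averaged 0.5 FPKM or more, with 9 differences above 0 and 1 below. The remaining marker, under that filter, entered the level with the same weight. The markers were chosen with earlier results of these data known, and 9 of them are also listed below as targets of PPARG and CEBPA. The level is therefore built largely from genes listed as targets of those factors. Such bulk samples cannot tell fewer cells of a type from less RNA per cell. This adipocyte marker level was 0.54 ± 0.59 (SD, n = 12) in high and -0.54 ± 0.51 (SD, n = 12) in low IMF animals, with all 12 high IMF animals above the low IMF median. The highest low IMF value, 0.64, belonged to animal 10, the animal with the high CEBPA value. The markers summed to 126 to 281 FPKM in high and 87.6 to 230 FPKM in low IMF muscle.

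Among animals of the same IMF class, CEBPA tracked this level most closely of the 9: its slope was 0.61 log2 units per unit of level (SE 0.137, unadjusted p = 1.62e-04, adjusted p = 0.1003, limma). EBF1 had a slope of 0.40 (SE 0.175, unadjusted p = 0.031, adjusted p = 0.391, limma) and STAT5A one of -0.42 (SE 0.178, unadjusted p = 0.026, adjusted p = 0.380, limma). PPARG had 0.18 (SE 0.135, adjusted p = 0.535, limma). No factor passed the threshold, which 0.0766% of the genes tested did, and 3 of 9 (33.3%) had an unadjusted p under 0.05, against 12.1% of all genes. Under TMM scaling EBF1 had a slope of 0.21 (unadjusted p = 0.262), CEBPA 0.46 (unadjusted p = 0.00282, adjusted p = 0.9995, limma) and STAT5A -0.59 (unadjusted p = 0.00454, adjusted p = 0.9995, limma). With a pseudocount of 0.1 the unadjusted p was 0.090 for EBF1 and 0.053 for STAT5A, and without low IMF animal 10 it was 0.131 for EBF1. The slope of CEBPA passed with a pseudocount of 0.1 (0.76, adjusted p = 0.036), without high IMF animal 5 (0.69, adjusted p = 0.030) and without high IMF animal 10 (0.67, adjusted p = 0.042). Without low IMF animal 10 it was 0.47 (adjusted p = 0.810, limma). The slope of STAT5A was -0.18 without high IMF animal 5 (unadjusted p = 0.168), so its size rests on that library.

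With the marker level as a term beside the IMF class, the IMF difference of CEBPA was 0.15 (95% interval -0.27 to 0.58, unadjusted p = 0.462, limma) and that of PPARG 0.25 (95% interval -0.17 to 0.67, unadjusted p = 0.230, limma). Without low IMF animal 10 these were 0.37 (unadjusted p = 0.114, limma) and 0.36 (unadjusted p = 0.136, limma). Without low IMF animal 7 PPARG was at 0.066, and CEBPA was at 0.039 without high IMF animal 10 and 0.094 without high IMF animal 5. With all 24 animals none of the 9 factors then had an unadjusted p under 0.05, beside 3.52% of all genes. STAT5A had a difference of 0.51 (95% interval -0.04 to 1.07, unadjusted p = 0.068, limma) in that fit. It was 0.42 (unadjusted p = 0.036) without high IMF animal 5 and 0.70 (unadjusted p = 0.029) without low IMF animal 10, with no adjusted p under 0.05 for any animal left out (limma).

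**Figure D3:**
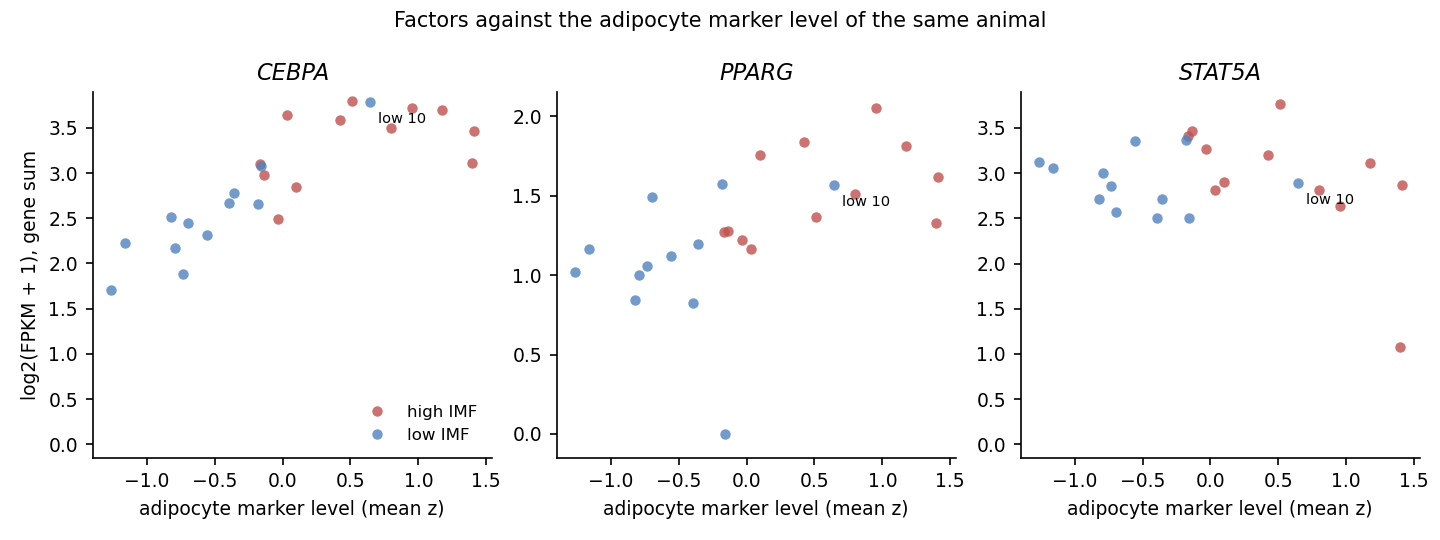
Levels of CEBPA, PPARG and STAT5A, as log2(FPKM + 1), against the adipocyte marker level (mean z score of 11 markers) of the same animal, with high IMF in red and low IMF in blue. CEBPA climbs with the level and low IMF animal 10, labelled, lies among the high IMF animals; the low STAT5A point at the right is high IMF animal 5.

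The listed transcripts show how each sum was built. Of the 20 transcripts, 14 are reference transcripts and 11 are listed at 0 in at least 1 library, and how reads were divided between them is an estimate of the assembly. CEBPD has no reference transcript, and the assembled MSTRG.9970.3, with 1 exon, averaged 91.5% of its sum. That transcript ends at chr4:79875664, past the RefSeq end of CEBPD at 79874481, so the CEBPD values rest largely on this assembled model. Of the 19 transcripts averaging 0.5 FPKM or more, 0 passed the threshold, beside 0.0187% of all transcripts tested. An unadjusted p under 0.05 was reached by 3, 2 of CEBPA and 1 of PPARG, against 6.34% of all transcripts. In 6 factors the share of each transcript in its gene could be tested, and of these 15 shares 0 had an unadjusted p under 0.05 (the lowest was 0.070, adjusted p = 0.973, limma), where 4.95% of all shares did.

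CEBPA, a gene without introns, is listed as the reference transcript ENSSSCT00000003167 at chr6:43084646-43085710 on the minus strand and an assembled transcript, MSTRG.11635.1, at chr6:43082975-43084028 with no strand. RefSeq places the gene at chr6:43083200-43085884, so both overlap it. The reference transcript made up 77.0% of the sum on average. Its difference was 0.75 (SE 0.196, adjusted p = 0.352, limma) and that of the assembled transcript 0.61 (SE 0.143, adjusted p = 0.306, limma). Their 95% intervals were 0.35 to 1.15 and 0.31 to 0.90, and their ratios of high over low IMF means 1.80 and 1.89. The assembled transcript passed the threshold without low IMF animal 10 (adjusted p = 0.012, limma).

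PPARG is listed as 3 reference transcripts on the plus strand of chromosome 13. Those starting at 68301566 and 68301572 begin within 6 bases of each other, and ENSSSCT00000012672, at chr13:68363873-68433963 with 7 exons, begins 62307 bases downstream. In other mammals a downstream start gives PPARG2, the form enriched in fat cells; whether this transcript is that form was not tested. It measured 0.700 ± 0.392 FPKM in high and 0.408 ± 0.263 FPKM in low IMF muscle (SD, n = 12 each), a difference of 0.26 (SE 0.126, unadjusted p = 0.049, adjusted p = 0.784, limma). The upstream transcript ENSSSCT00000042071 had a difference of 0.13 (adjusted p = 0.913, limma). The 3 transcripts averaged 29.6%, 33.7% and 36.7% of the sum, with no transcript leading in most animals.

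RXRA has 4 reference transcripts, and in each of its extreme animals a single one held the whole sum. In high IMF animal 3 all 53.9 FPKM was assigned to ENSSSCT00000057575, and in high IMF animal 4 all 1.14 FPKM to ENSSSCT00000036293, the shortest at 1438 bases, with the other 3 listed at 0. The class medians of ENSSSCT00000036293 were 1.29 FPKM in high and 1.11 FPKM in low IMF animals, so its value in animal 4 was an ordinary one. In low IMF animals ENSSSCT00000057575 averaged 33.2% of the sum and ENSSSCT00000036293 11.06%. STAT5A is split between the reference ENSSSCT00000064828 and the assembled isoform MSTRG.2453.7, whose differences were -0.42 (adjusted p = 0.885, limma) and 0.50 (adjusted p = 0.901, limma), of opposite sign. EBF1 is split between a reference transcript and an isoform that each ran from 0% to 100% of the sum in single animals.

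STAT5A and STAT5B overlap at their 5′ ends, where the STAT5B isoform MSTRG.2454.1, at chr12:20497998-20501115 on the plus strand, reaches into STAT5A on the minus strand. The named library kit is not stated to keep strand, so reads in the overlap may have been given to the wrong gene, which was not tested. That isoform was 5.52% of the STAT5B sum on average, while ENSSSCT00000062592 was 82.4%. The difference of the latter was 0.12 (SE 0.346, adjusted p = 0.9746, limma), close to that of the gene sum.

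**Figure D4:**
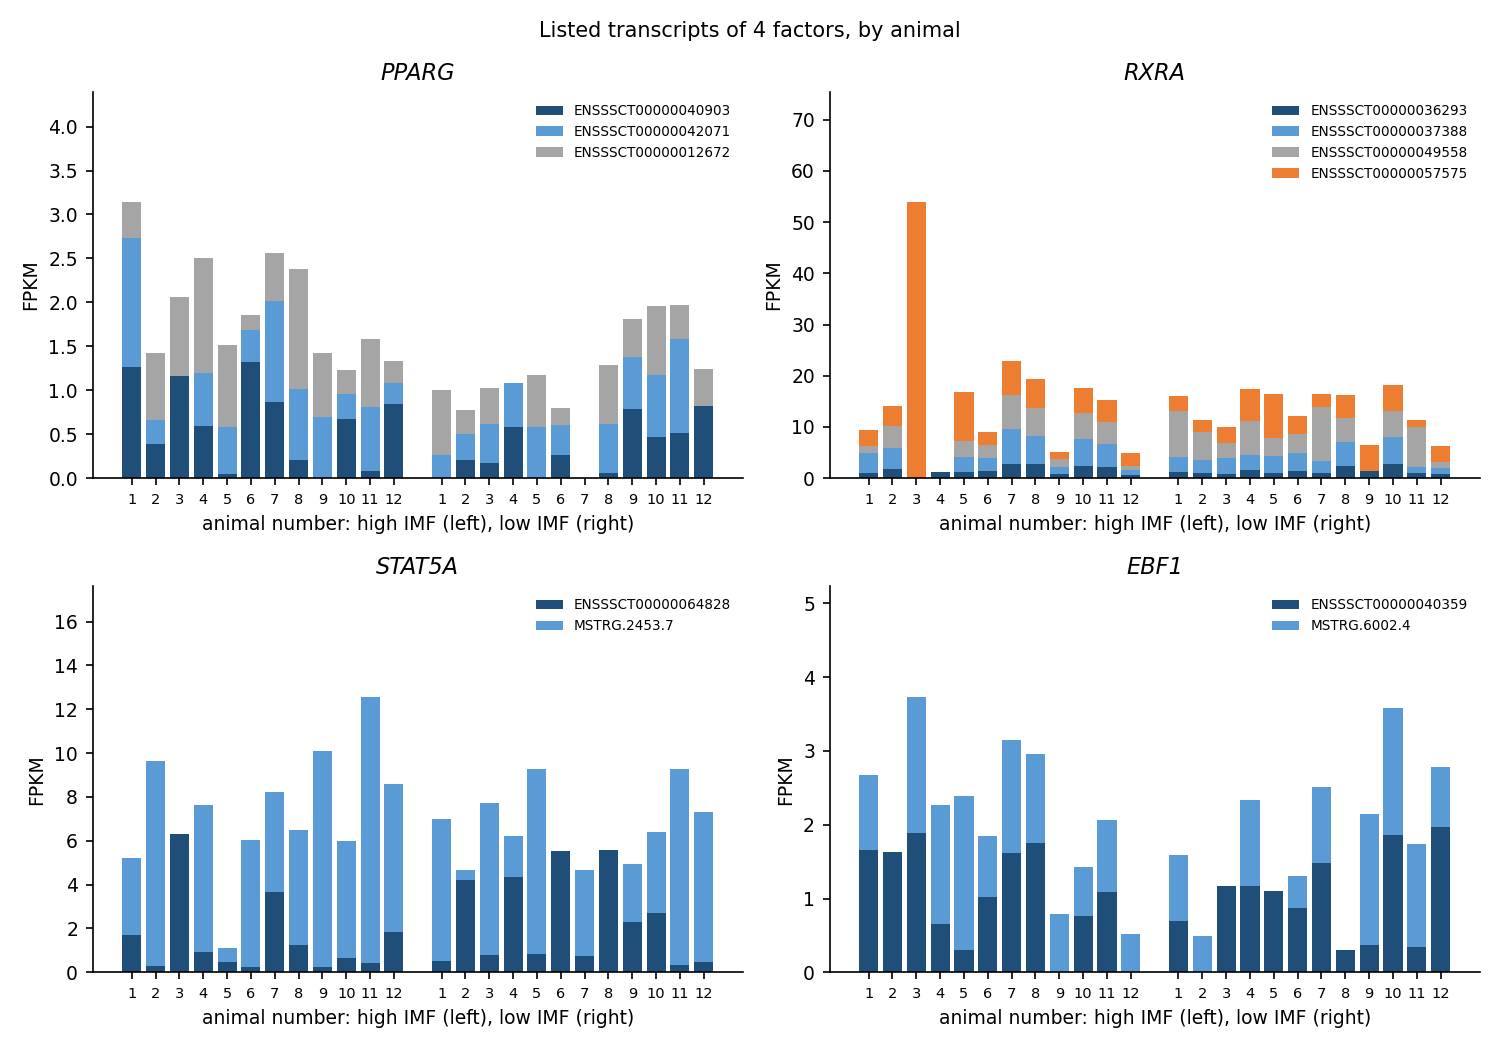
FPKM of each listed transcript, stacked to the gene sum, in every animal for PPARG, RXRA, STAT5A and EBF1, with high IMF animals on the left and low IMF animals on the right of each panel. High IMF animal 3 stands at 53.9 FPKM of RXRA in 1 transcript, and low IMF animal 7 has no bar for PPARG, being listed at 0.

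The authors' deposited table gives its own fold and p-value per transcript, the fold being low over high IMF. Of the 20 transcripts, 2 had a p-value under 0.05 in the authors' deposited table, both of CEBPA, where 6.39% of all listed transcripts did. The authors' deposited table gives ENSSSCT00000003167 a fold of 0.643 and p = 0.00223, and MSTRG.11635.1 a fold of 0.693 and p = 0.00130. No q-value of a factor's transcript in the authors' deposited table was below 0.237.

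Other genes of the network were taken from lists chosen by function, with earlier results of these data known. Of 30 other regulators of fat cell formation 23 were tested, with 16 above 0 and a median difference of 0.08, level with the 0.08 of all genes, and -0.002 under TMM scaling. An unadjusted p under 0.05 was reached by 1 of these 23, beside 7.68% of all genes. It was DDIT3, a CEBP-family protein that blocks CEBPB (1.91 ± 0.290 against 1.52 ± 0.220 FPKM (SD, n = 12 each), difference 0.21, adjusted p = 0.456, limma). NR3C1, the glucocorticoid receptor, had 0.48 (adjusted p = 0.704, limma). GATA2, which holds progenitors back, had -0.13 (adjusted p = 0.781, limma), and TCF7L2, a Wnt effector, -0.23 (adjusted p = 0.804, limma).

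Among 12 relatives and partners of RXRA tested, 6 were above 0 and the median was 0.007. NR1H2, an oxysterol receptor, had 0.25 (unadjusted p = 0.035, adjusted p = 0.626, limma) and NR4A1, an orphan receptor induced by exercise and stress, -0.62 (unadjusted p = 0.048, adjusted p = 0.644, limma). PPARD, the PPAR of oxidative muscle, had 0.20 and RXRB -0.32, both with adjusted p = 0.704 (limma). The 11 PPARG coregulators tested had a median of 0.09. Among them NCOA2, a coactivator of nuclear receptors, had 0.59 (unadjusted p = 0.00884, adjusted p = 0.490, limma), NCOR1, a corepressor, -0.20, PPARGC1B -0.11 and CITED2 -0.21, the last 3 with adjusted p from 0.827 to 0.850 (limma).

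Of 19 genes of the JAK-STAT5 pathway 11 were tested, 7 of them above 0, with a median of 0.12. GHR, the growth hormone receptor upstream of STAT5A and STAT5B, measured 19.03 ± 8.72 against 10.8 ± 7.74 FPKM (SD, n = 12 each), a difference of 0.91 with 10 of 12 high IMF animals above the low IMF median (unadjusted p = 0.014, adjusted p = 0.538, limma). STAT3 had 0.21, STAT6 0.16 and BCL6, a repressor that competes for STAT5 sites, 0.36, with adjusted p from 0.704 to 0.746 (limma). None of these passed the threshold.

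The fat cell genes that PPARG and CEBPA act on included genes past the threshold. Of 25 listed targets 21 were tested, 17 were above 0, 12 had an unadjusted p under 0.05, all 12 higher in high IMF muscle where 6.79% of all genes were, and 2 passed the threshold that 0.051% of all genes passed. The list was chosen with earlier results of these data known, so these shares are no independent support. The list's difference from the factors was not tested. The median was 0.64, and 0.62 under TMM scaling. LEP, the fat cell hormone leptin, rose by 0.65 (adjusted p = 0.00697, limma) and TUSC5, a regulator of glucose transport in fat cells, by 1.29 (adjusted p = 0.014, limma). ADIPOQ, the hormone adiponectin, had 1.32 (adjusted p = 0.054, limma) and DGAT2, the last enzyme of triglyceride synthesis, 1.44 (adjusted p = 0.069, limma). Of the 21, 9 are also on the adipocyte marker list. Among the 12 that are not, 9 were above 0, 5 had an unadjusted p under 0.05 and the median was 0.29, or 0.18 under TMM scaling.

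The lists of other cells and of handling gave these values beside the factors, and their part in the results was not tested. All were chosen with earlier results of these data known. At an unadjusted p under 0.05 (limma), the share of all genes was 7.68% in either direction and 6.79% higher in high IMF muscle. The adipocyte markers had a median of 0.86 over 10 tested (0.76 under TMM scaling), with 8 higher at an unadjusted p under 0.05. Fibroblast and progenitor markers had a median of 0.15 over 12 (0.060 under TMM scaling), with 1 higher at an unadjusted p under 0.05. Endothelial markers had 0.12 over 11 (0.016 under TMM scaling), with 1 higher, and smooth muscle and pericyte markers 0.08 over 9 (-0.012 under TMM scaling), with 0. Macrophage markers had 0.20 over 8 (0.15 under TMM scaling), with 0, and red blood cell markers 0.34 over 3 (0.29 under TMM scaling), with 1 higher. Muscle fibre markers had -0.16 over 12 (-0.24 under TMM scaling), with 2 lower, and satellite cell markers 0.03 over 6 (-0.023 under TMM scaling), with 1 lower. Of the lymphocyte markers 1 was tested. The 21 stress and immediate early genes, which share inducers with CEBPB and CEBPD, had a median of -0.06 (-0.15 under TMM scaling), with 0 at an unadjusted p under 0.05.

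**Figure D5:**
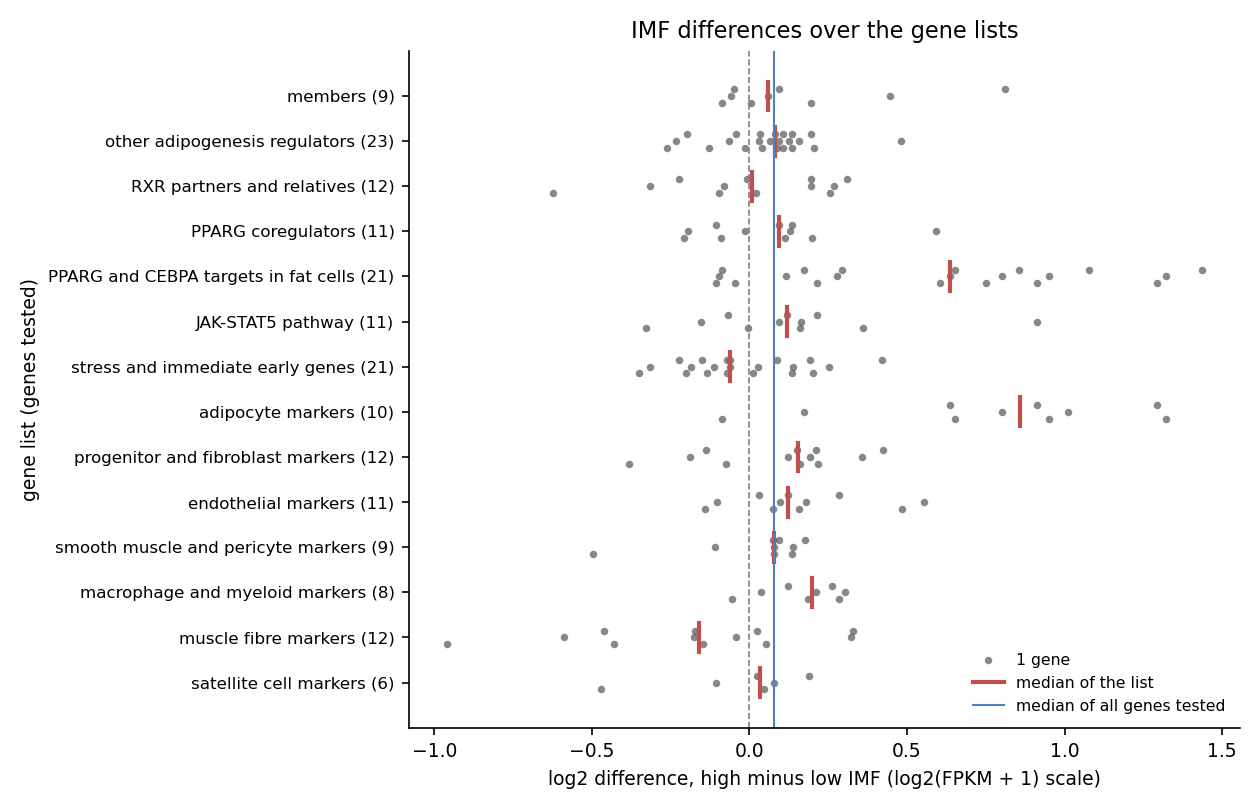
Difference of each tested gene, high minus low IMF on the log2(FPKM + 1) scale, by gene list, with the number tested in brackets, a red bar at the list's median and a blue line at the median of all genes. The targets of PPARG and CEBPA (median 0.64) and the adipocyte markers (0.86), which share 9 genes, lie to the right, and the factors (0.06) lie near the all-gene line.

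For each factor, the 3 genes whose levels were most like it were taken from 8012 genes with a symbol and 1 FPKM or more on average, by Pearson r of log2(FPKM + 1) centred within IMF class over 24 animals. CEBPA was most like TSPO, an outer mitochondrial membrane protein (r = 0.863), SLC39A1, a zinc importer (0.844), and CTSZ, a lysosomal protease (0.843). TSPO had r above 0.8 in each class and measured 15.1 ± 4.20 against 9.69 ± 3.61 FPKM (SD, n = 12 each; adjusted p = 0.269, limma). PPARG was most like LRP1, an endocytic receptor (0.881), SLC5A10, a sugar transporter (0.818), and PDGFRB, a receptor of pericytes and progenitors (0.769). By the rule, each of these is the highest of many correlations.

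CEBPB was most like TFPT (0.853), SDC4, a cell surface proteoglycan (0.828), and CCT7, a chaperonin subunit (0.820). CEBPD was most like RAE1, an mRNA export factor (0.846), UTP11, a ribosome assembly protein (0.815), and LIPE, hormone-sensitive lipase and 1 of the listed targets (0.782). KLF5 was most like PERP, a desmosome protein (0.810), VASH2 (0.771) and H3F3A (0.771), and EBF1 most like EHD2, a protein of caveolae (0.790), MAT2B (0.772) and TMEM63B (0.768). STAT5B was most like NECAP1 (0.792), HPS4 (0.780) and UBE4B (0.734). The locus at KLF4 was most like ADAMTS1 (0.831), CXCL2 (0.818) and KLF2, another Krüppel-like factor (0.810).

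For RXRA and STAT5A the likeness rested on the high IMF class, which holds their extreme animals. RXRA and MRPL49, a mitochondrial ribosomal protein, had r of 0.712 over all 24 animals, 0.900 within the high and 0.277 within the low class. AIFM1 (0.699) was split in the same way, at 0.831 and 0.284, while TIMM21 (0.676) had 0.740 and 0.723. STAT5A and SNAPC5, a subunit of the small nuclear RNA activating complex, had r of 0.790 over all 24 animals, 0.902 within the high and -0.268 within the low class. The other 2 for STAT5A were NELFE (0.709) and RYK (0.707), at 0.061 and -0.233 within the low class.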

How the data were processed

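The authors' deposited values, 1 per transcript and animal, were taken to be FPKM from their decimals and unequal column totals; per the file headers the transcripts carry class codes of an assembly, and no further step is stated. HISAT2 2.0.5, StringTie 1.3.3 and the build Sscrofa11.1 appear in the submitters' processing notes with no roles. The authors' deposited fold is a ratio of low to high IMF, whose sign matched that of the class means in 328 of 328 transcripts with p under 0.01, and the p-value and q-values beside it are also the authors'. FPKM was summed per symbol and chromosome, and limma 3.58.1 in R 4.3.3, with trend and robust moderation, was fitted to log2(FPKM + 1) over all genes or transcripts with a mean of at least 0.5 FPKM, with Benjamini-Hochberg adjustment. The scripts were tested on simulated data. The members and lists were chosen with earlier results of these data known. Named genes were all members, up to 4 genes per list by smallest p, and the 3 most like genes per member. Depth was estimated from the step of 1 base of coverage in low values, of which 72.9% to 84.7% came out whole within 0.05 base; 1 read on 1 kilobase is worth 0.0245 to 0.0304 FPKM, and intervals from reads would cover counting error only. Reads worth a gene sum follow from that step and the transcript length. The p-values measure the spread between these animals; 6 animals share the first 9 identifier digits in 3 pairs, and EIF1AY, a Y-linked gene, was under 1 FPKM in 5 high and 3 low IMF animals. The alternatives tried were scaling, filter, pseudocount, moderation, weights, identifier digits, Y-linked level, marker level, reference transcripts alone and each animal left out.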

Additional observations from a re-analysis of the deposited data

How the results depend on the processing

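No paired analysis was possible because the labels give no replicate numbers shared between the classes. The number of factors past the threshold was 0, and 1 (CEBPA) with array weights and when low IMF animal 10 and high IMF animal 7 were both left out; with 1 animal left out it ran from 0 to 1, for the transcripts from 0 to 1, and for the slope on the marker level from 0 to 1, where a pseudocount of 0.1 also gave 1. At a mean of at least 5 FPKM, 1 factor had an unadjusted p under 0.05, since PPARG falls below that filter. Over all genes, the calls of 5 higher became 3 with upper quartile scaling, 3 at a mean of at least 5 FPKM, 23 with array weights and 18 without both animals, and ran from 3 to 29 with 1 animal left out (29 without low IMF animal 10). The 1 lower call became 2 with TMM or upper quartile scaling, 3 with array weights or without both animals, and 0 with a pseudocount of 0.1, the identifier digits as a term, 1 animal per shared 9 digits or the Y-linked level, and ran from 0 to 2. The cause of these shifts was not tested.

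PPARG, CEBPA, EBF1 and RXRA kept their sign under each alternative on all 24 animals, except EBF1 with the marker level as a term (-0.24). Signs that reversed were those of small differences. Under TMM and upper quartile scaling these were CEBPD (-0.095 and -0.10), STAT5A (-0.039 and -0.047), STAT5B (-0.015 and -0.022), the KLF4 locus (-0.030 and -0.037), ENSSSCT00000018950 of STAT5B (-0.032 and -0.028), ENSSSCT00000036293 (-0.037 and -0.036) and ENSSSCT00000037388 (-0.048 and -0.043) of RXRA and ENSSSCT00000040359 of EBF1 (-0.0084 and -0.0053). A pseudocount of 0.1 reversed MSTRG.2454.1 (0.013), ENSSSCT00000036293 (-0.15), ENSSSCT00000037388 (-0.19), ENSSSCT00000057575 (-0.0019), ENSSSCT00000040359 (-0.024), MSTRG.9970.3 of CEBPD (0.0070) and the slope of STAT5B (0.037). CEBPD was -0.040 with 1 animal per 9 digits, -0.066 with the Y-linked level and -0.40 with the marker level, and STAT5B -0.025 and -0.0024 under the first 2 of these. KLF5 was 0.044 with array weights. STAT5A was -0.42 with reference transcripts alone. Without both animals CEBPB was 0.038 and KLF5 0.028, and the slopes of CEBPB, KLF5 and the KLF4 locus were -0.091, -0.070 and -0.032; TMM scaling gave slopes of -0.015, -0.0036 and -0.048.

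With 1 animal left out the ranges that crossed 0 were CEBPB -0.17 to 0.024, CEBPD -0.14 to 0.17, KLF5 -0.14 to 0.030, RXRA -0.28 to 0.15, STAT5A -0.017 to 0.23, STAT5B -0.022 to 0.22 and the KLF4 locus -0.011 to 0.13. Transcripts that crossed 0 were MSTRG.2454.1 (-0.047 to 0.051), ENSSSCT00000062592 (-0.0086 to 0.26), ENSSSCT00000018950 (-0.12 to 0.17), ENSSSCT00000036293 (-0.043 to 0.13), ENSSSCT00000037388 (-0.14 to 0.19), ENSSSCT00000057575 (-0.10 to 0.42), ENSSSCT00000037574 (-0.14 to 0.030), ENSSSCT00000040359 (-0.035 to 0.13), MSTRG.9970.3 (-0.16 to 0.16) and ENSSSCT00000037850 (-0.17 to 0.024). Slopes that crossed 0 were CEBPB (-0.081 to 0.25), KLF5 (-0.068 to 0.27), STAT5B (-0.29 to 0.16) and the KLF4 locus (-0.033 to 0.15). Within the identifier sets, the difference of CEBPA in the higher-numbered set ran from 0.78 to 1.19 with 1 animal left out, and its call at p under 0.05 ended for 10 of the 12 animals. The values without each animal for slopes, interaction, identifier sets, marker level fit and CEBPB with CEBPD, and every value of the KLF4 locus were chosen after seeing the data.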
